A study of Mus musculus with 24 samples.

Results

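The 34 genes described here carry a dividing cell through DNA replication and mitosis, and they were followed in the liver of mice that ate phloridzin, a glucoside of apple that blocks sodium-glucose cotransport. The genes were chosen by name. On an Affymetrix mouse expression array, every probe set whose platform annotation names 1 of them as its only gene was taken. Where a gene had several, the probe set brightest on average over the 24 arrays stands for it. This gave 76 probe sets of 45101 and a value for 33 of the 34 genes, among 18193 genes measured in the same way. Ccnb1 had no such probe set. They were split by role into 13 replication genes, 5 regulators of G1 and S entry and 15 measured mitosis genes.

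The animals were male BALB/c mice, 6 weeks old at the start, that ate the purified AIN-93G diet with 0 (control), 0.1, 0.5 or 1.0% phloridzin for 14 days. The labels describe 6 mice per diet, kept 3 to a cage, with the dark phase during the day. The series title asks what phloridzin does to blood glucose and to liver gene expression in normal mice. No transgene or disease model was involved.

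The 24 arrays held fewer than 24 RNA samples. The SD of the log2 difference between arrays over 1463 well measured genes was 0.0436 to 0.0577 in 13 of 276 pairs and 0.108 to 0.137 in a further 8, against 0.164 or more in all other pairs, and arrays joined by these 21 pairs were averaged as repeats of the same RNA. This left 4 control samples (replicates 1 and 3, 2 and 4, 5, and 6), 3 samples at 0.1% (replicates 2, 4 and 5), 2 at 0.5% (replicates 1, 2, 3 and 6, and replicates 4 and 5) and 2 at 1.0% (replicates 2, 3, 5 and 6, and replicate 4). Values below follow that order of samples within each diet. Another 4 arrays, 0.1% replicates 1, 3 and 6 and 1.0% replicate 1, shared 1 RNA under the labels of 2 diets and entered no comparison. Nothing shows that the 11 samples are 11 separate mice, so the p-values measure only the spread between these samples.

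As background, a cell that prepares to divide first loads the MCM helicase onto replication origins, makes deoxynucleotides and copies its DNA, and then switches on the kinases, motors and checkpoint proteins of mitosis. Replication genes are largely driven by E2F factors, while many mitosis genes carry a CHR element, read by the DREAM complex, together with CCAAT elements. Adult hepatocytes are mostly out of the cycle and re-enter it after injury or partial hepatectomy, so most of these transcripts are scarce in a resting liver.

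The promoters of these genes differed by role in a way that the choice of genes did not use. RefSeq windows of 300 bases (GRCm38.p6, 250 bases before to 50 after a gene's start) were found for 12 of the 13 replication genes, 3 of the 5 G1 and S entry genes and 14 of the 16 mitosis genes, and were searched on both strands. An E2F motif, written as TTTGGCGC, TTTCCCGC, TTTGCCGC or TTTCGCGC, was found in 6 of the 12 replication genes and in 1 of the 14 mitosis genes (7.14%), against 2.605% of the 27025 genes in the table. The CHR motif TTTGAA was found in 10 of 14 mitosis genes (71.4%) and in 1 of 12 replication genes (8.33%), against 20.2% of all genes. CCAAT was found in 12 of 14 mitosis genes (85.7%) and 8 of 12 replication genes (66.7%), against 41.1% of all genes. The same 10 mitosis genes that held TTTGAA also held CCAAT, a pair found in 7.97% of all genes. None of the 3 G1 and S entry genes (Ccne1, Cdkn1a and E2f1) held a match to any of these motifs in its windows. A match is a description of the letters and was not tested as a binding site. The 150 bases that end just before the start are given for Mcm2, Mcm3 and Ccne1, whose signals differed most over the diets, for Mcm6 as a replication gene with E2F matches, and for Cdk1 and Cdc20 as mitosis genes with CHR and CCAAT matches. They read 5′ to 3′ on the strand of the gene, with coordinates on GRCm38.p6, and capitals mark motif matches.
Mcm2, chr6:88898781-88898930, minus strand: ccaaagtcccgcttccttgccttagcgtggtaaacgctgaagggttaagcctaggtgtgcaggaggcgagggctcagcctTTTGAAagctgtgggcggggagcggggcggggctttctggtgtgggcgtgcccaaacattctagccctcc
Mcm3, chr1:20820313-20820462, minus strand: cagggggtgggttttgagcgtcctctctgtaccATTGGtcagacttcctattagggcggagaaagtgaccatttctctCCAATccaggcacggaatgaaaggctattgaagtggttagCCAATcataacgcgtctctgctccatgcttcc
Mcm6, chr1:128359706-128359855, minus strand: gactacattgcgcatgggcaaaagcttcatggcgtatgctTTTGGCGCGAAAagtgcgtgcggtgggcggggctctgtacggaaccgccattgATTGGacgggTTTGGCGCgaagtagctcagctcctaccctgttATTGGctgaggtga
Ccne1, chr7:38107491-38107640, minus strand: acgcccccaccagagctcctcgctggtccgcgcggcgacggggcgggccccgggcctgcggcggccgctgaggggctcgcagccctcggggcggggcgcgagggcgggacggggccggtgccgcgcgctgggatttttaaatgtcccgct
Cdk1, chr10:69352913-69353062, minus strand: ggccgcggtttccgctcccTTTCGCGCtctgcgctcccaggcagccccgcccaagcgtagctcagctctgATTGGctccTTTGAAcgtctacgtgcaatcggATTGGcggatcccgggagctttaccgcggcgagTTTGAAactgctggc
Cdc20, chr4:118437344-118437493, minus strand: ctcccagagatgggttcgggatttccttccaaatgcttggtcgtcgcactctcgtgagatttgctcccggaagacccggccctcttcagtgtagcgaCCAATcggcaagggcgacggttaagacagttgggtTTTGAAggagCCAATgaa
In Mcm2 the capitals are a CHR match and in Mcm3 they are 3 CCAAT matches, with the 2 E2F matches of Mcm3 lying after the start and outside the stretch shown. In Mcm6 the first run of capitals is a pair of overlapping E2F matches, one on each strand, followed by CCAAT and E2F matches. Cdk1 held E2F, CHR and CCAAT matches together.

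**Figure D1:**
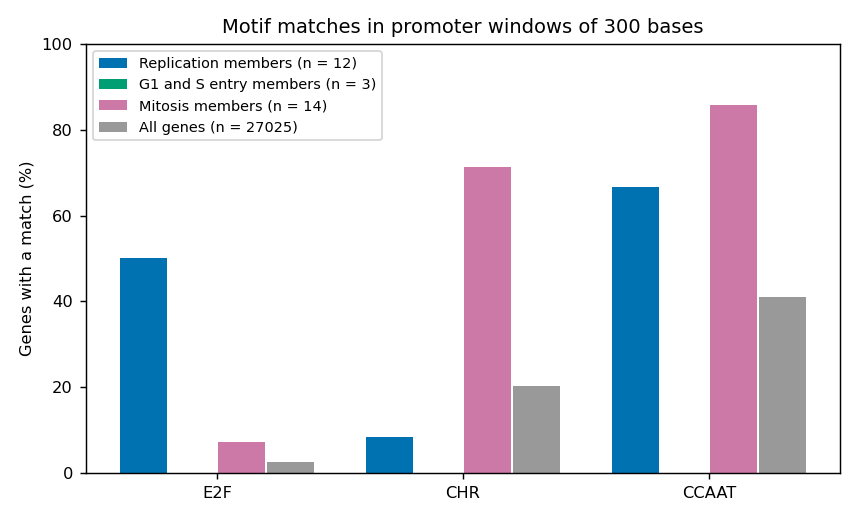
Bars give the percentage of genes with at least 1 match to each motif in the 300-base promoter window, for replication, G1 and S entry and mitosis genes and for all 27025 genes of the table. E2F matches stand at 6 of 12 replication genes and 7.14% of mitosis genes, and CHR matches at 8.33% and 71.4%; the G1 and S entry genes have no bar because none of the 3 held a match.

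Most of the mitosis probe sets lay close to the floor of the assay, and the replication probe sets lay further above it. Signals were floored at an intensity of 8, so that 3.00 is the lowest log2 value, and a mean under 4 was read as near the floor. Of the 15 mitosis genes 9 were near the floor and 0 had a mean above 6, with means of 3.02 to 5.62. Of the 13 replication genes 3 were near the floor and 3 had a mean above 6, with means of 3.00 to 8.47. The 5 G1 and S entry genes ran from 3.34 to 6.76, with 2 near the floor. In all, 18 of the 33 measured genes reached the floor on at least 1 array, and 5 did so on more than 12 of the 24. Probe sets differ in how strongly they bind their target, so these levels describe what the array could measure and rank no transcript against another. Cdc6, Tyms, Aurkb, Bub1 and Bub1b were among the lowest 40% of probe sets and were not tested, which left 28 genes with a test among 13118.

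**Figure D2:**
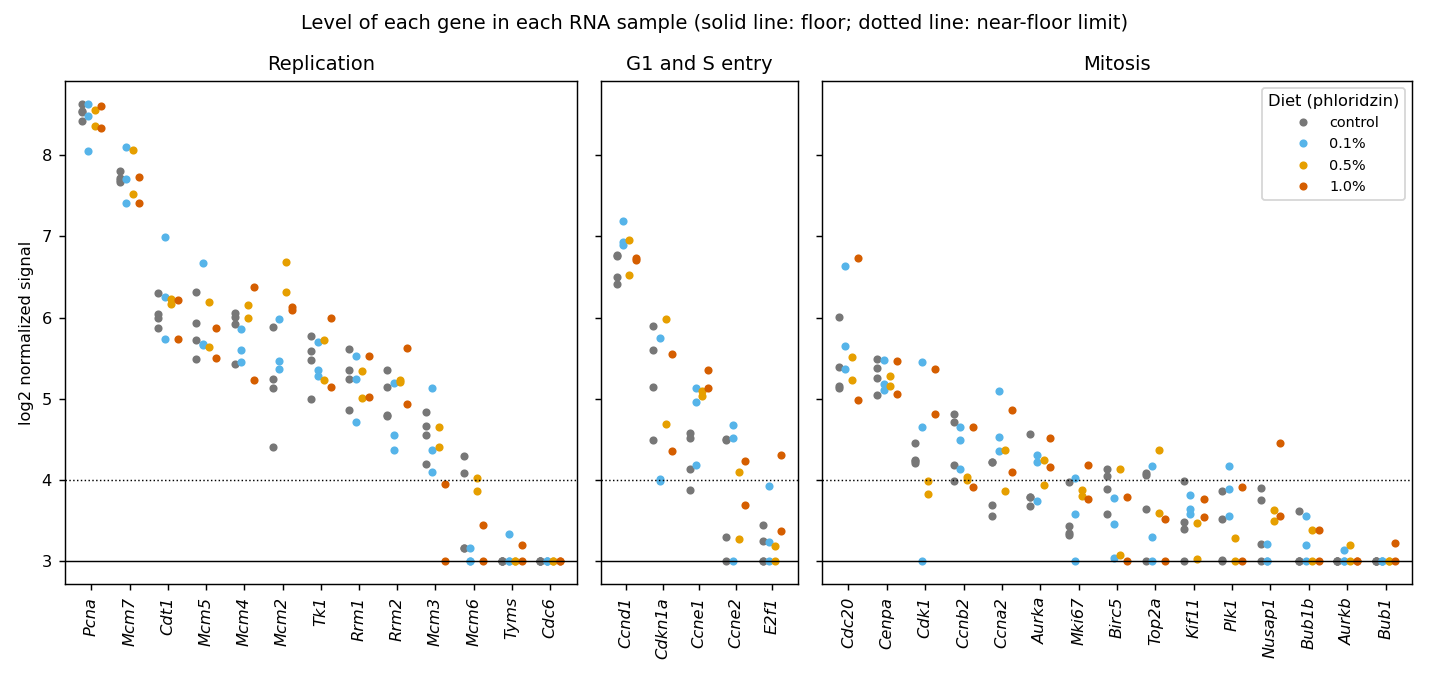
Log2 normalized signal (vertical axis) of each of the 33 measured genes in each of the 11 RNA samples, coloured by diet. The solid line is the floor at 3.00 and the dotted line the near-floor limit at 4; 9 of 15 mitosis genes have their mean below the dotted line, against 3 of 13 replication genes.

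In no dose against control was any of the 28 tested genes called at an adjusted p under 0.05 (limma, Benjamini-Hochberg over 13118 genes). The lowest limma adjusted p among them was 0.541 at 0.1%, 0.496 at 0.5% and 0.715 at 1.0%. Among all genes the calls were 3 (0.0229%) at 0.1%, 1 (0.00762%) at 0.5% and 2 (0.0152%) at 1.0%. Below an unadjusted limma p of 0.05 stood 2 of the 28 genes at 0.1% (7.14%, against 8.47% of all genes), 2 at 0.5% (7.14%, against 5.22%) and 3 at 1.0% (10.7%, against 6.49%). They were Ccnd1 and Ccna2 at 0.1%, Mcm2 and Ccne1 at 0.5%, and Mcm2, Ccne1 and Mcm3 at 1.0%. These counts moved with single samples. At 0.1% the count was 1 without control replicates 1 and 3 and 4 without 0.1% replicate 4. At 0.5% it was 1 without control replicates 2 and 4 and 1 without either of the samples at that dose. At 1.0% it was 6 without the sample of replicates 2, 3, 5 and 6 and 1 without replicate 4. The 3 comparisons share the same control samples and are not independent of each other.

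Over the measured genes, floor values included, the medians of the replication and mitosis genes stayed close to those of all genes. Genes at the floor in every sample have a change of 0 and draw such medians towards 0. The median log2 change of the 13 replication genes was -0.01 at 0.1%, 0.05 at 0.5% and -0.05 at 1.0%, and that of the 15 mitosis genes was 0.05, 0.00 and 0.11, beside 0.00 at each dose for all 18193 measured genes. Of the 15 mitosis genes, 10 were higher and 4 lower at 0.1% and at 1.0%, and 7 were higher and 7 lower at 0.5%. Of all measured genes, 8015 were higher and 8163 lower at 0.1%, 8412 and 8071 at 0.5%, and 7610 and 8797 at 1.0%. Over the 12 mitosis genes that passed the filter the median at 1.0% was 0.28, beside -0.02 for all genes tested. The mean of the 15 measured mitosis genes stood above the control mean by 0.30 in 1.0% replicate 4. In the other sample at 1.0% it stood above by 0.03. The 5 G1 and S entry genes had medians of 0.24, 0.05 and 0.14, which moved with single samples. At 0.1% the median was 0.41 without 0.1% replicate 4 and 0.36 without control replicates 1 and 3. At 0.5% it was 0.27 without replicates 1, 2, 3 and 6 of that dose, 0.019 without replicates 4 and 5, 0.15 without control replicate 6, 0.087 without control replicates 1 and 3, and 0.082 without control replicates 2 and 4. At 1.0% it was 0.41 without replicates 2, 3, 5 and 6 of that dose, 0.37 without control replicates 1 and 3 or 2 and 4, and 0.048 without control replicate 5. Without scaling of the arrays it was below 0 at the upper doses, at -0.14 and -0.01, where all genes stood at -0.19 and -0.35, and with arrays centred on their medians it was -0.03 at 0.5%. With a floor of 32 it was 0.00 at 0.1% and 1.0%. Of the 28 tested genes, 24 differed from control by less than 0.5 on the log2 scale at 0.1%, 26 at 0.5% and 20 at 1.0%. The standard error of a change ran from 0.14 to 0.48 at 0.1% and from 0.16 to 0.54 at the upper doses. In bulk liver, a change in the number of cycling cells and a change in RNA per cell cannot be told apart.

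**Figure D3:**
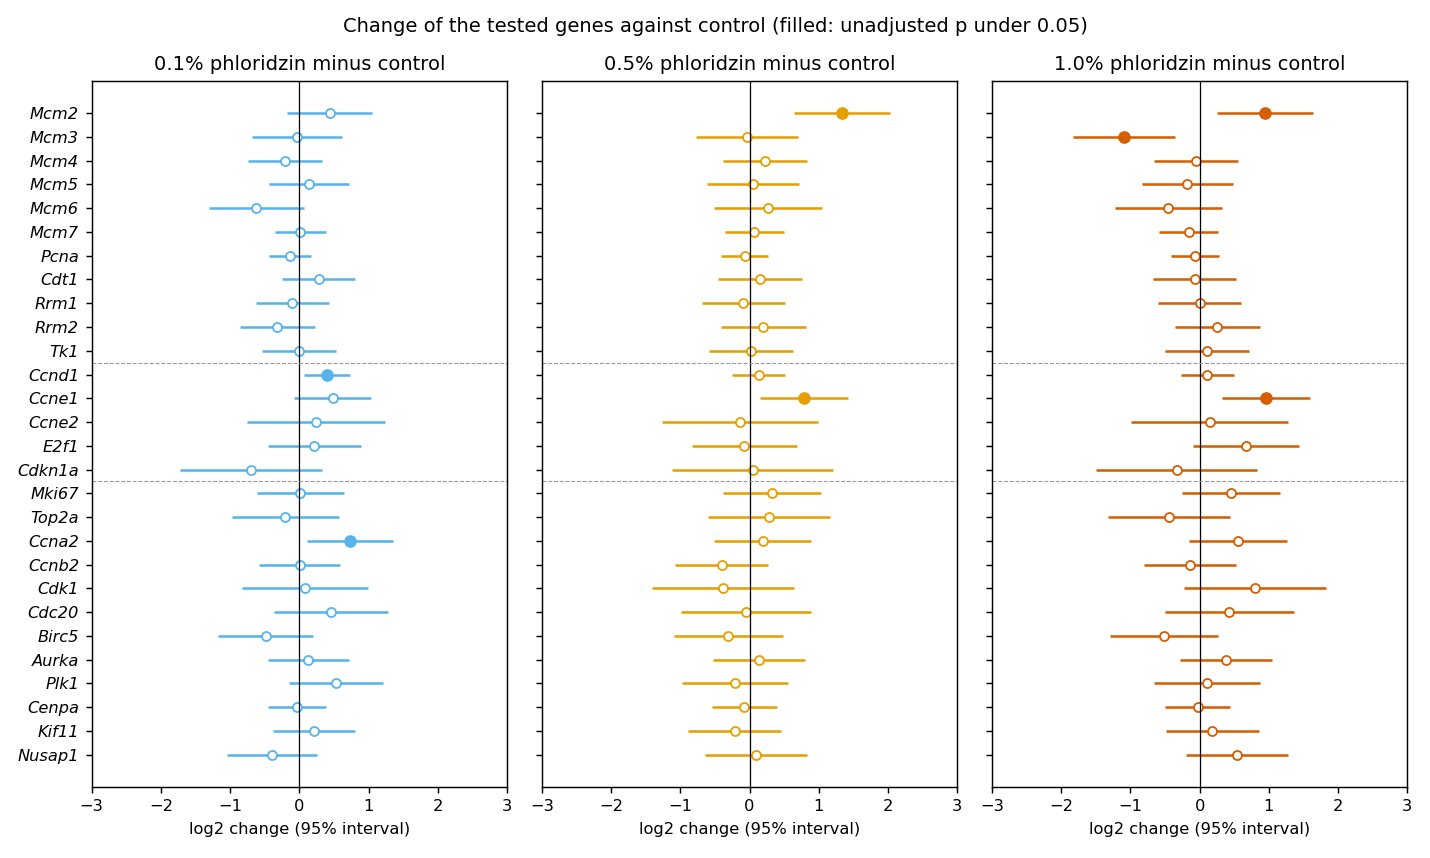
Log2 change against control (horizontal axis) with its 95% interval for each of the 28 tested genes, 1 panel per dose; dashed lines separate replication, G1 and S entry and mitosis genes. Filled points are the 2, 2 and 3 genes with an unadjusted limma p under 0.05, and none passed after adjustment.

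Mcm2, a subunit of the replicative helicase, stood apart most among the replication genes, on probe set 1434079_s_at. Its log2 signal was 5.13, 4.40, 5.88 and 5.25 in the control samples, 5.46, 5.37 and 5.99 at 0.1%, 6.69 and 6.31 at 0.5% and 6.09 and 6.13 at 1.0%. All samples at 0.5 and 1.0% lay above all control samples, while the 0.1% samples overlapped with control. The difference from control was 1.33 ± 0.32 (log2 change ± SE, 95% interval 0.64 to 2.03) at 0.5%, with a limma p of 0.00106 unadjusted and an adjusted p = 0.496. At 1.0% it was 0.95 ± 0.32 (limma unadjusted p = 0.0111, adjusted p = 0.747). A second probe set for Mcm2, 1448777_at, did not show this. Its signal was 4.64 and 3.99 at 0.5% and 3.97 and 4.01 at 1.0%, against 4.23, 4.20, 4.47 and 4.15 in control, a change of 0.05 at 0.5% and -0.27 at 1.0%, where both samples lay below control.

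Mcm3, another subunit of the helicase, went the other way at the top dose on its chosen probe set, 1420028_s_at. It stood at 4.20, 4.67, 4.56 and 4.84 in control, 4.37, 4.10 and 5.14 at 0.1%, 4.41 and 4.65 at 0.5% and 3.95 and 3.00 at 1.0%. Both samples at 1.0% lay below every control sample, and replicate 4 was at the floor. The change at 1.0% was -1.09 ± 0.34 (limma unadjusted p = 0.00666, adjusted p = 0.735). It was -0.61 without that replicate. A second probe set of Mcm3, 1426653_at, gave 3.94 and 4.55 at 1.0%, against 3.49, 3.27, 3.68 and 3.27 in control, a difference of 0.82 in the opposite direction. That probe set was near the floor, with a mean of 3.67. Another near-floor probe set, 1449705_x_at, stood at -0.72 at 1.0%, with 3.31 and 3.00, against 3.89, 4.92, 3.67 and 3.00 in control.

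Mcm6, the helicase subunit whose promoter holds the overlapping E2F matches, was near the floor. Its signal was 3.16, 4.09, 3.17 and 4.30 in control, 3.17, 3.00 and 3.00 at 0.1%, 4.03 and 3.86 at 0.5% and 3.45 and 3.00 at 1.0%. The samples at 0.5% lay above those at 0.1%, by 0.89 (limma unadjusted p = 0.035, adjusted p = 0.439), and overlapped with control. Repeat arrays of the same RNA differed with an SD of 0.61 for this probe set, the highest among the tested genes. A second near-floor probe set of Mcm6, 1438852_x_at, went the other way between these doses, with means of 3.58 at 0.5% and 3.86 at 0.1%. On their chosen probe sets Mcm4 and Mcm5 overlapped with control at every dose, with changes of -0.21 to 0.22 and -0.18 to 0.14.

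Mcm7 and the sliding clamp Pcna, which tethers polymerases to DNA, lay furthest above the floor and agreed best between repeat arrays of the same RNA. Mcm7 read 7.69, 7.67, 7.72 and 7.80 in control, 7.41, 7.70 and 8.10 at 0.1%, 8.07 and 7.52 at 0.5% and 7.72 and 7.40 at 1.0%. Pcna read 8.54, 8.42, 8.53 and 8.62 in control, 8.49, 8.05 and 8.63 at 0.1%, 8.56 and 8.36 at 0.5% and 8.60 and 8.33 at 1.0%. Samples at each dose lay both inside and outside the narrow control range of these genes or on both sides of it, and neither gene was wholly above or below control at any dose on these probe sets. The largest change of Pcna from control was -0.14 ± 0.14 (95% interval -0.44 to 0.16) at 0.1%, and that of Mcm7 was -0.16 ± 0.20 (-0.58 to 0.26) at 1.0%.

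On the probe sets that stand for them, the loading factors and the nucleotide-making enzymes overlapped with control at every dose. Cdt1, which brings the helicase to origins, stood at 6.255, 5.733 and 6.997 at 0.1%, against 5.992, 6.048, 5.868 and 6.298 in control, and its partner Cdc6 was at 3.00 in all 11. Rrm1 and Rrm2, the subunits of ribonucleotide reductase, differed from control by -0.10 to 0.00 and by -0.32 to 0.26. A second probe set of Rrm1, 1448127_at, with a mean of 5.36, read 5.10, 5.27 and 5.03 at 0.1%, against 5.28, 5.62, 5.60 and 5.54 in control, a change of -0.38 without overlap. Tk1, the thymidine kinase of S phase, differed by -0.01 to 0.11, and Tyms, thymidylate synthase, was at the floor on 19 of 24 arrays.

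Among the G1 and S entry genes, Ccne1 and Ccnd1 stood apart from control at 1 or more doses. Ccne1 encodes cyclin E1, which activates Cdk2 at the start of S phase. It stood at 4.58, 3.88, 4.13 and 4.52 in control, 4.96, 4.19 and 5.13 at 0.1%, 5.04 and 5.09 at 0.5% and 5.35 and 5.13 at 1.0%. All samples at 0.5 and 1.0% lay above all control samples. The change was 0.79 ± 0.30 at 0.5% (limma unadjusted p = 0.019, adjusted p = 0.81) and 0.96 ± 0.30 at 1.0% (limma unadjusted p = 0.00598, adjusted p = 0.715). These values come from probe set 1441910_x_at. The second Ccne1 probe set, 1416492_at, stood 0.13 above control at both doses, with 4.88 and 4.22 at 1.0%, against 4.54, 4.34, 4.38 and 4.43 in control. The endings _s_at of the chosen Mcm2 and Mcm3 probe sets and _x_at of that of Ccne1 are the manufacturer's marks for probes that can match more than a single transcript. The chosen probe sets of Mcm7 and Aurkb also end in _s_at, and those of Mcm4, Mcm5, Rrm2 and Cdc20 in _x_at.

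Ccnd1 encodes cyclin D1, the partner of Cdk4 and Cdk6 that answers growth signals. Its signal on probe set 1417420_at was 6.94, 6.89 and 7.18 at 0.1%, against 6.50, 6.75, 6.41 and 6.77 in control, so the groups did not overlap. The change was 0.40 ± 0.16 (95% interval 0.06 to 0.73, limma unadjusted p = 0.0246, adjusted p = 0.543), and a second probe set, 1448698_at, gave 0.34. This was the only gene of the 5 below an unadjusted p of 0.05 against control whose second probe set differed from control by a similar amount. At 0.5% Ccnd1 read 6.52 and 6.95 and at 1.0% 6.70 and 6.74, which overlapped with control. A near-floor probe set of the same gene stood at -0.19 at 0.1%.

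Cdkn1a encodes p21, an inhibitor of cyclin-dependent kinases that p53 and other stress signals induce. It varied more between samples of a diet than any other gene of the 28, with an SD of 0.82. Its signal was 5.15, 4.50, 5.90 and 5.60 in control, 4.01, 3.99 and 5.75 at 0.1%, 5.98 and 4.69 at 0.5% and 4.36 and 5.56 at 1.0%. Each dose had 1 sample in or above the upper part of the control range, and at 0.1% and 1.0% the others lay below all control samples. The changes were -0.70 ± 0.48, 0.05 ± 0.54 and -0.33 ± 0.54 (limma adjusted p = 0.693, 0.996 and 0.933). A second, near-floor probe set, 1421679_a_at, went the other way at 0.1%, by 0.42, with 3.38, 3.54 and 3.71, against 3.00, 3.01, 3.47 and 3.00 in control. In mouse liver Cdkn1a is known to follow the clock. Nr1d1, a clock repressor, read 6.62, 6.69, 6.65 and 6.46 in control, 7.04, 6.02 and 7.35 at 0.1%, 3.56 and 5.51 at 0.5% and 6.44 and 6.49 at 1.0%. In the sample with the lowest Nr1d1 (0.5% replicates 1, 2, 3 and 6) Cdkn1a read 5.98. In the 2 samples with the highest Nr1d1, 0.1% replicates 5 and 2, Cdkn1a read 5.75 and 4.01. The summed linear signal of 8 clock output genes ran from 482 to 3237 at 0.5% and from 1259 to 2525 in control, and 2 of the 8 (Per1 and Ciart) were near the floor. The part of the clock in the Cdkn1a values was not tested. The other 2 genes of this group, Ccne2, a second cyclin E, and E2f1, the founding E2F factor, were near the floor and overlapped with control at every dose.

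The 24 genes with more than 1 probe set had 43 others, of which 31 were near the floor. Of these 43, 3 (6.98%) did not overlap with control at 0.1% (Rrm1, Ccnd1 and Ccne1), 1 (2.33%) at 0.5% (Mcm4) and 5 (11.6%) at 1.0% (Mcm2, Mcm3, Mcm6, Mcm7 and Cdc20), against 5.97%, 12% and 12.6% of the 16752 such probe sets of all genes. Ccnd1 was the only gene whose chosen and other probe set both lay outside the control range in the same direction at the same dose. Of these, the Mcm7 probe set 1416031_s_at read 6.35 in both samples at 1.0%, against 5.63, 6.06, 5.58 and 5.92 in control, and the Mcm4 probe set 1416214_at read 5.35 and 5.52 at 0.5%, against 5.03, 5.21, 5.01 and 5.18.

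**Figure D4:**
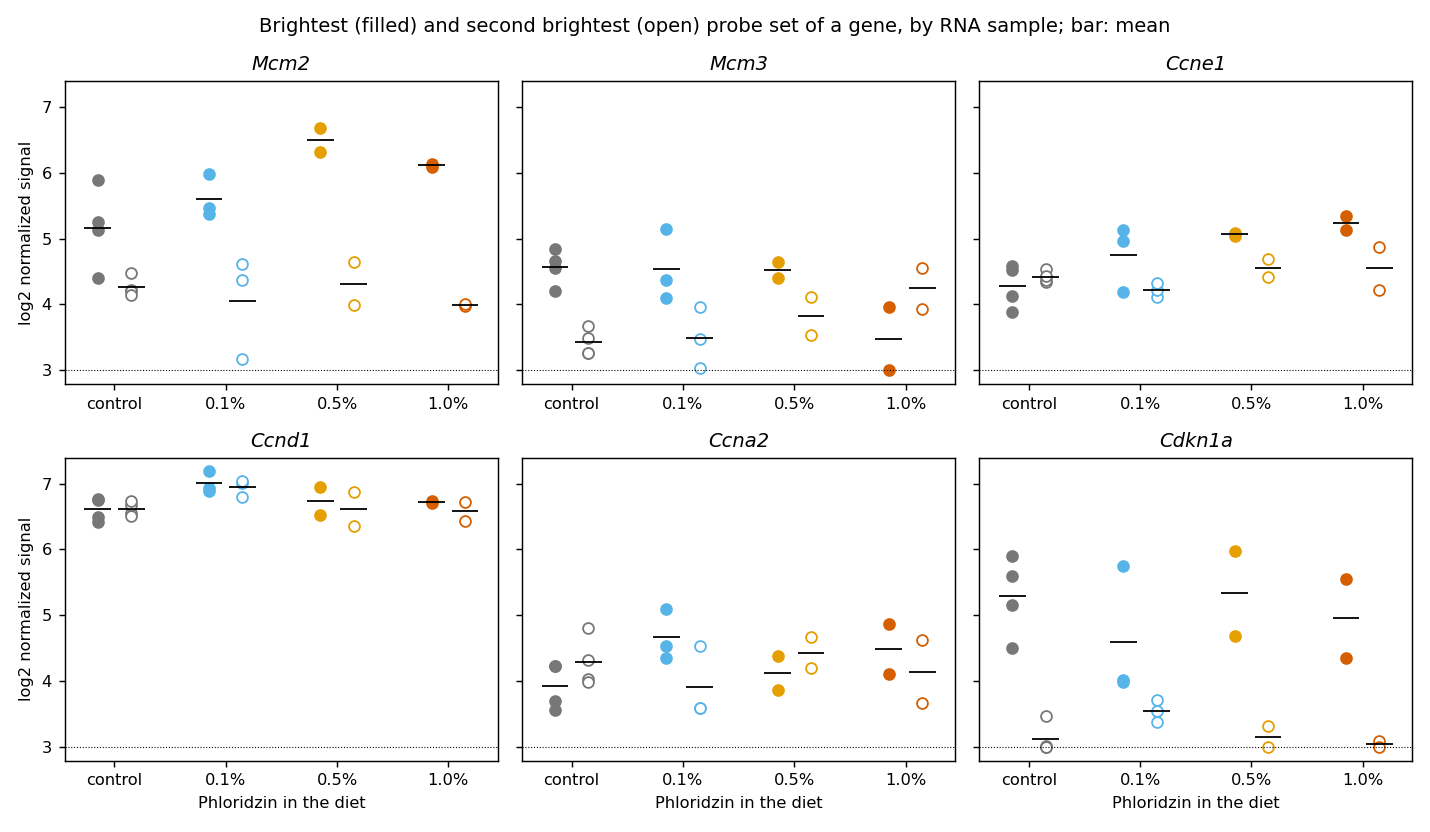
Log2 normalized signal of the brightest (filled) and second brightest (open) probe set of 6 genes in each RNA sample, by diet, with bars at the means. The filled points of Mcm2 lie above control at 0.5 and 1.0%, at 6.09 to 6.69, while its open points at those doses lie between 3.97 and 4.64; only for Ccnd1 do both probe sets stand above control at 0.1% by a similar amount.

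Among the mitosis genes, Ccna2, which encodes cyclin A2 of S phase and early mitosis, was the only member below an unadjusted p of 0.05 against control. On probe set 1417910_at it read 4.35, 5.10 and 4.53 at 0.1%, against 3.56, 4.22, 3.69 and 4.23 in control, without overlap. The change was 0.74 ± 0.29 (limma unadjusted p = 0.0236, adjusted p = 0.541). The second Ccna2 probe set, 1417911_at, read 3.59, 3.60 and 4.54 at 0.1%, against 4.33, 4.04, 3.99 and 4.81 in control, a change of -0.38. At 0.5% the chosen probe set read 3.86 and 4.38 and at 1.0% 4.11 and 4.86.

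Cdk1, the kinase that starts mitosis, had control samples close together at 4.24, 4.21, 4.46 and 4.25. It read 4.65, 3.00 and 5.46 at 0.1%, 3.99 and 3.83 at 0.5% and 4.81 and 5.37 at 1.0%. The samples at 0.5% all lay below control and those at 1.0% all lay above it, with changes of -0.38 ± 0.48 and 0.80 ± 0.48 (limma adjusted p = 0.984 and 0.778). Over all 28 tested genes, 2 (7.14%) did not overlap with control at 0.1%, 3 (10.7%) at 0.5% and 4 (14.3%) at 1.0%, against 7.87%, 17.9% and 20.6% of all genes tested.

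Mki67, whose protein coats mitotic chromosomes and is the usual stain for cycling cells, was near the floor. It stood at 3.97, 3.32, 3.44 and 3.35 in control, 3.59, 4.02 and 3.00 at 0.1%, 3.81 and 3.88 at 0.5% and 3.76 and 4.18 at 1.0%. All 3 doses overlapped with control, and the change at 1.0% was 0.45 ± 0.33 (95% interval -0.26 to 1.16, limma adjusted p = 0.831). Nusap1, a microtubule-binding protein of the spindle, read 3.56 and 4.46 at 1.0%, against 3.22, 3.00 and 3.00 at 0.1%, a difference of 0.94 (limma unadjusted p = 0.0219, adjusted p = 0.328). Its control samples, at 3.91, 3.76, 3.00 and 3.21, overlapped with both doses.

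The checkpoint and chromosomal passenger genes were at or near the floor. Bub1, a kinase of the spindle checkpoint, was at 3.00 in 10 of the 11 samples and at 3.22 in the 1.0% sample of replicates 2, 3, 5 and 6. Aurkb, the kinase of the passenger complex, was above 3.00 in the 0.1% sample of replicate 5, at 3.14, and in the 0.5% sample of replicates 1, 2, 3 and 6, at 3.20, and in no other. Bub1b, a second checkpoint protein, ranged from 3.00 to 3.61, and Birc5, the survivin subunit of the passenger complex, from 3.00 to 4.14.

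The remaining mitosis genes overlapped with control at every dose. Cdc20, which activates the anaphase-promoting complex, ranged from 4.98 to 6.73 and had its highest values in the 1.0% sample of replicate 4 and the 0.1% sample of replicate 5, at 6.63. Cenpa, the centromeric histone, was the steadiest of these, at 5.04 to 5.49 in all samples. Top2a, a topoisomerase that untangles chromosomes, Ccnb2, a B-type cyclin, the kinases Plk1 and Aurka and the spindle motor Kif11 had changes of -0.44 to 0.52 across the doses.

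The tests over all diets gave names already described, and the differences between doses added Mcm6 and Nusap1. The F-test over the diets placed Mcm2 (unadjusted p = 0.00517), Ccne1 (0.0218) and Mcm3 (0.0298) below 0.05, 3 of 28 genes beside 9.25% of all genes, with limma adjusted p = 0.389, 0.484 and 0.488. The slope on the percent of phloridzin placed the same 3 below 0.05, beside 8.83% of all genes. It was 1.03 ± 0.35 for Mcm2, 0.89 ± 0.28 for Ccne1 and -0.99 ± 0.32 for Mcm3 (log2 per 1% of diet ± SE, limma adjusted p = 0.464 for each). Between doses, Mcm2 was higher at 0.5% than at 0.1% by 0.89 (limma unadjusted p = 0.0201, adjusted p = 0.395), Mcm3 lower at 1.0% than at 0.1% by 1.06 (unadjusted p = 0.0109, adjusted p = 0.283) and lower than at 0.5% by 1.05 (unadjusted p = 0.0187, adjusted p = 1). With Mcm6 and Nusap1 above, these were the 5 dose-to-dose differences below 0.05, where 10.7%, 12.2% and 4.21% of all genes stood for 0.5% against 0.1%, 1.0% against 0.1% and 1.0% against 0.5%. None was called.

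Measurement error was a larger share of the spread for the dim genes. Repeat arrays of the same RNA differed with a median SD of 0.0625 for the 4 genes with a mean above 6 (Pcna, Mcm7, Ccnd1 and Cdt1) and of 0.263 for the 24 other tested genes. The median SD between RNA samples of a diet was 0.38 over the tested genes, and 24 of the 33 measured genes varied more between RNA samples than between repeat arrays. Over the 11 samples, deviations from the diet means had a median Pearson r of 0.29 between pairs of the 11 tested replication genes and of 0.04 between pairs of the 12 tested mitosis genes. These pairs share the same arrays and their scaling, so the values are a description.

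**Figure D5:**
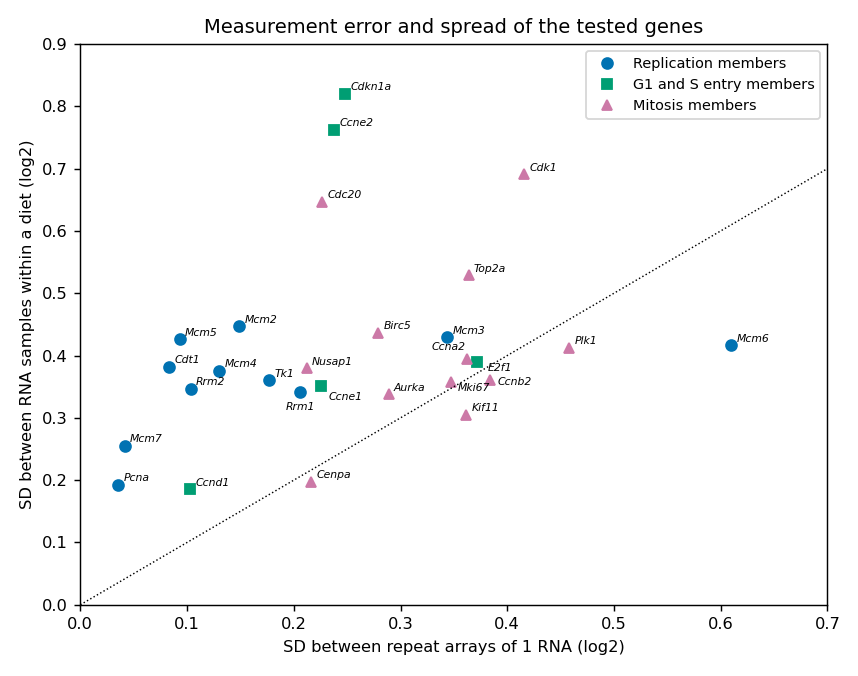
SD between RNA samples within a diet (vertical axis, log2) against SD between repeat arrays of the same RNA (horizontal axis, log2) for the 28 tested genes, by role. Points above the dotted line vary more between RNA samples than between repeats; Pcna and Mcm7 lie at the lower left and Mcm6, at a repeat SD of 0.61, lies below the line.

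Further genes of the same pathways, listed by role, gave the same picture. Of 40 other replication genes 36 were tested and 0 were called. Below an unadjusted p of 0.05 stood 1 at 0.1%, Gmnn, the inhibitor of Cdt1, at 0.40 ± 0.14, and 0 at the upper doses. Of all genes tested, 8.47%, 5.22% and 6.49% stood there at 0.1, 0.5 and 1.0%. The median change of the 38 measured replication genes was 0.03, 0.06 and -0.02 over the 3 doses. Of 45 other mitosis genes 31 were tested, 23 were near the floor and 0 were called. With an unadjusted p below 0.05 stood 0, 3 and 3 at 0.1, 0.5 and 1.0%, beside the same shares of all genes. Of these mitosis genes Cks1b, a small subunit of Cdk complexes, stood at 8.35 and 8.75 at 0.5% and 8.53 and 8.41 at 1.0%. Its control samples stood at 8.82, 8.76, 9.56 and 9.25. Its changes were -0.55 ± 0.20 and -0.63 ± 0.20 (limma adjusted p = 0.758 and 0.741). Ube2c, the ubiquitin-conjugating enzyme of mitotic exit, had a near-floor mean of 3.44 and was at 3.00 to 3.09 in control. It read 3.46, 3.80 and 3.29 at 0.1%, 3.69 and 3.61 at 0.5% and 4.22 and 3.73 at 1.0%. The changes were 0.49 ± 0.25, 0.63 ± 0.28 and 0.95 ± 0.28 (limma adjusted p = 0.605, 0.928 and 0.715).

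Of 27 other G1 regulators 25 were tested and 0 were called, with 4, 2 and 3 below an unadjusted p of 0.05 over the doses, where 8.47%, 5.22% and 6.49% of all genes stood. Rbl1, the pocket protein p107, stood at 4.22, 4.19 and 4.22 at 0.1%, against 4.60, 4.99, 4.86 and 4.97 in control (limma adjusted p = 0.488). Cdc25a, a phosphatase that frees Cdk2, stood at 3.90 and 4.92 at 1.0%, against 4.95 to 5.47 in control (limma adjusted p = 0.754). E2f8, a repressor of the E2F family, stood at 6.21 and 5.51 at 0.5%, against 4.53 to 5.08 in control (limma adjusted p = 0.716). Of 14 p53 targets that could accompany Cdkn1a, 10 were tested and 2 stood below an unadjusted p of 0.05 at 0.1%, beside 8.47% of all genes, both lower (Mdm2 at -0.70 ± 0.26 and Trp53inp1 at -0.36 ± 0.15), with 0 at the upper doses.

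The tissue matched its label. All 5 measured hepatocyte markers (Alb, Ttr, Apoa1, Cps1 and Cyp2e1) had a mean log2 signal of 12.98 or more, and their summed signal was 59638 to 61517 at 0.1%, 60540 to 60928 at 0.5% and 61542 to 61622 at 1.0%, against 59219 to 62732 in control. Among other cells that can divide in a liver, 5 of 7 T and NK cell markers were near the floor, with Cd3d at 3.00. Of 5 measured B cell markers 2 (Cd79a and Ms4a1) were near the floor, and the 5 summed to 375 to 524 at 0.1%, 406 to 437 at 0.5% and 412 to 416 at 1.0%, against 324 to 484 in control. Of the 4 B cell markers tested, 2 were higher and 2 lower at 0.1%, with a median change of -0.04. Ighm read 8.61, 8.41 and 7.77 at 0.1%, against 7.42, 7.94, 7.56 and 7.66 in control. Cd74 read 6.53, 6.31 and 6.92 at 0.1%, against 6.87, 7.68, 6.47 and 6.62 in control. Other lists had summed linear signals wholly outside the control range at 1 or more doses. Such sums weigh the brightest markers most. The summed signal of 8 Kupffer cell markers was 2107 to 2347 at 0.1% and 2259 to 2390 at 1.0%, below the 2418 to 2894 of control. That of 6 sinusoidal endothelial markers was 840 to 1085 at 0.1% and 1098 to 1128 at 1.0%, below the 1137 to 1200 of control. Of these 6 markers, 0 were higher and 6 lower at 0.1%, and 2 were higher and 4 lower at 1.0%. The 2 higher at 1.0%, Kdr and Lyve1, lay above all control samples. Lyve1 read 5.91 and 5.88 there, against 5.15 to 5.76 in control. Stab2 read 7.93 and 7.96 at 1.0%, below the 8.16 to 8.34 of control, while Clec4g, the brightest, overlapped with control. The 5 measured erythroid markers, of which Hba-a1 and Slc4a1 were near the floor, summed to 651 to 812 at 0.5%, below the 897 to 1253 of control. Of these 5 markers, 1 was higher and 4 were lower at 0.5%. The brightest, Alas2, read 9.11 and 8.75 there, against 9.45 to 9.82 in control, while Tfrc overlapped with control. The 4 measured cholangiocyte markers, 3 of them near the floor (Krt7, Krt19 and Sox9), summed to 68.7 to 69.6 at 0.5%, above the 39.0 to 52.5 of control. The sum of 7 neutrophil markers reached 397 in 1 sample at 0.5%, against 141 to 211 in control, and that of 5 stellate cell markers overlapped with control at every dose. The part of these cells in the values of the cell cycle genes was not tested.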

How the data were processed

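Liver RNA of 24 arrays was measured as 1 linear intensity per probe set; the authors deposited these intensities, while no source used here gives their summarisation, background correction or scaling. Array medians ran from 9.49 to 18.0. Intensities were quantile-normalized, floored at 8 and log2-transformed, so changes of dim genes that reach below the floor are cut short. Probe sets were named from the platform annotation (34945 with a single gene, 932 with several, which were not used). Arrays of the same RNA (SD of the log2 difference over genes with mean log2 above 9 of under 0.08, or under 0.15) were averaged. The lowest 40% of probe sets were left out (27022 kept), with the brightest probe set per gene. Tests used limma 3.58.1 in R 4.3.3 (lmFit, eBayes with trend, 7 residual degrees of freedom, two-sided, Benjamini-Hochberg over 13118 genes, called under 0.05), in 1 fit of 4 diets. A check on simulated data used normal values without a floor and changes larger than that of any member. It did not measure how often changes of the size seen here would be called. Per-sample values are given for genes below an unadjusted p of 0.05 and for the 3 brightest, the 3 dimmest, Cdkn1a, Ccnd1 and Mki67 (Cdk1 and Cdt1 were added after their values were seen); up to 4 other genes per list were eligible by F-test. Members, lists and settings were chosen with earlier results of these data known. No depth exists for arrays; sample number limits precision. Alternatives covered scaling, floor, filter, probe sets, sample definitions and leaving out samples.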

Additional observations from a re-analysis of the deposited data

Results flagged for a closer look

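The following 4 values were flagged. Aurka in control replicate 6 was 4.57, far from the other control samples at 3.68, 3.79 and 3.80. Bub1b in the same sample was 3.61, with the other control samples at 3.00. For values off the floor, chance alone gives about 1 such value in 20 groups, and 33 genes were examined in the control group. That rate does not hold for Bub1b, whose other control samples lay at the floor. In the RNA that carried the labels of 2 diets, which entered no comparison, Cdt1 read 7.12, against 5.87 to 6.30 in control, and Ccne1 read 5.25, against 3.88 to 4.58. Ccne1 lay within the range of the 11 samples used, and Cdt1 above it. Other members of this RNA also lay outside that range. Mcm5 at 6.70, Tk1 at 6.30, Cenpa at 5.56, Kif11 at 4.02 and Bub1b at 3.81 lay above it. Rrm1 at 4.57 and Ccnb2 at 3.72 lay below it. These were not tested.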

How the results depend on the processing

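No member was called with any of the 11 samples left out, nor in 12 of the 14 other settings. The exceptions were the fits that counted all 24 arrays as samples. These called 4, 2 and 2 members at 0.1, 0.5 and 1.0% without a replicate block (Ccnd1, Cdt1, Mcm2 and Ccne1 at 0.1%, Mcm2 and Ccne1 at the upper doses) and 5, 2 and 2 with a replicate block (Ccna2 added), with 9 members below an unadjusted p of 0.05 at 0.1% in each and a replication median of 0.17 at 0.5%. Without the block they called 2632, 448 and 402 of all genes, against 3, 1 and 2. In these fits repeat arrays of the same RNA enter as separate samples. The 4 arrays of the RNA with labels of 2 diets enter as well, under their own labels. That RNA read Cdt1 at 7.12 and Ccne1 at 5.25, where the means of the samples used at 0.1% were 6.33 and 4.76. Counting 13 samples called 3, 18 and 2. The replicate numbers did not pair the arrays: of 36 same-numbered pairs 6 had an r over 0.1, and 4 of 24 arrays correlated best with their own number. The count of members below an unadjusted p of 0.05 at 0.1% (2) was 1 with arrays centred on medians, no scaling, a floor of 1, the lowest 60% left out or 13 samples, and 0 with the mean of a gene's probe sets. At 0.5% (2) it was 1 with no scaling, a floor of 32 or the mean of probe sets and 0 without x and s probe sets. At 1.0% (3) it was 1 with either of these probe set rules. Leaving out a sample gave 1 to 4, 1 to 2 and 1 to 6. The replication median went to -0.19 at 1.0% with median centring and to -0.17, -0.11 and -0.35 with no scaling, where the median change of all genes stood at -0.20 at 1.0% and at -0.16, -0.19 and -0.35. With samples left out it ran from -0.17 to 0.034 at 0.1% and -0.20 to 0.0017 at 1.0%. The mitosis median at 1.0% was -0.027 with a floor of 1, 0.00 with a floor of 32 and 0.070 to 0.23 with samples left out. The following 3 directions turned. Ccna2 at 0.1% was -0.38 with a floor of 1, which selects its other probe set, and Mcm2 and Mcm3 at 1.0% were -0.27 and 0.82 without x and s probe sets, which does the same. The few samples at 0.5 and 1.0% and the floor limit what can be seen of the dim mitosis genes.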
